A study of Mus musculus with 3 samples.

Results

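This report describes 8 genes of iron and metal homeostasis in mouse embryonic stem cells in which translation was inhibited. They were taken by symbol: the ferritin subunit genes Fth1 and Ftl1, the transferrin receptor gene Tfrc, the divalent metal transporter gene Slc11a2, the iron regulatory protein genes Ireb2 and Aco1, and the metallothionein genes Mt1 and Mt2. All 8 were listed among the 32285 genes of the count tables. All 8 also reached a mean of 10 CPM (UMI counts of a gene per 1e+06 counted in the library's cells) over the libraries, as did 7608 genes in all.

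The cells were E14 cells, an embryonic stem cell line of the 129/Ola background, kept in medium with serum and leukemia inhibitory factor. From 24 h after seeding, 1 culture received cycloheximide at 250 µg/mL for 3 h, 1 received the same dose for 6 h, and the control received ethanol alone for 6 h. Cycloheximide blocks the elongation step of translation and was given in 0.007% ethanol. Each group was 1 library of cells frozen before barcoding, read by 10x Genomics 3′ single-cell RNA sequencing, so no difference below has a replicate check, no test between groups was made, and the 3 h cells had no ethanol control of their own duration.

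Iron balance in animal cells is set largely after transcription. Iron regulatory proteins bind a hairpin called the iron-responsive element (IRE). In iron-poor cells, binding in the 5′ UTR of ferritin transcripts holds back their translation, and binding in the 3′ UTR of the Tfrc transcript protects it from decay. Metallothioneins are small cysteine-rich proteins that bind zinc and copper, and their genes are switched on by the zinc sensor MTF1 at metal response elements.

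The libraries held 115188502 to 150987519 unique molecular identifiers (UMIs), each marking 1 captured RNA molecule. Barcodes with at least 15000 UMIs and 1 to 20% mitochondrial UMIs were used as cells, which gave 2187 control cells, 1739 cells after 3 h and 2554 cells after 6 h, with median depths of 43160, 51726 and 46200 UMIs. The lower mitochondrial limit left out 62 control barcodes, 1 after 3 h and 8 after 6 h. The mitochondrial share of UMIs in the cells was 4.57% in the control, 3.52% after 3 h and 2.94% after 6 h, and totals without mitochondrial genes moved no ratio of the 8 genes below by more than 0.024 (log2). The control and 3 h libraries shared 3 cell barcodes, the control and 6 h libraries 3, and the treated libraries 1. All 6 embryonic stem cell markers were present in each library, at 57.7 to 592 CPM. Summed markers of fibroblasts reached 1.29 to 2.48 CPM with Col3a1 at 0 UMIs throughout, those of primitive endoderm 6.21 to 10.6 CPM, and those of erythroid cells 0.108 to 0.192 CPM with Hbb-bs at 0 UMIs. The summed primitive endoderm markers were highest in the control, but the single markers were divided. Over control, 3 h and 6 h, Sox7 (5.55, 1.32 and 0.299 CPM) and Gata6 (2.64, 2.02 and 1.48 CPM) were highest in the control. Gata4 (1.88, 2.42 and 3.35 CPM) and Sox17 (0.494, 1.41 and 1.08 CPM) were lowest there.

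The hairpins through which the iron regulatory proteins act are shown because they tie ferritin and the receptor to 1 pathway. Transcripts of GENCODE M21 (GRCm38) were searched for an unpaired C, 5 bases, the loop CAGTGN and 5 bases that pair with the first 5, with G-T pairs allowed. The pattern lay in a UTR of 159 of 21630 genes with a coding transcript (0.735%), among them 3 of the 8 members. It requires all 5 pairs, so a gene without a match can still carry an IRE, and a gene with matches can carry more. It found 0 elements in Slc11a2, which has transcript forms with an IRE, and 0 in Cdc42bpa, a gene listed as IRE-regulated. The pattern was also searched in Alas2 and Epas1, with 0 elements in each. Fth1 had 1 element in its 5′ UTR at chr19:9982732-9982760 (plus strand), and Ftl1 had 1 in its 5′ UTR at chr7:45459779-45459807 (minus strand). Tfrc had 4 in its 3′ UTR (plus strand), at chr16:32631219-32631247, chr16:32631598-32631626, chr16:32631663-32631691 and chr16:32631710-32631738. Capitals mark the unpaired C and the loop.
Fth1: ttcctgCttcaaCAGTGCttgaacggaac
Ftl1: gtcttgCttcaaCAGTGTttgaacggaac
Tfrc element 1: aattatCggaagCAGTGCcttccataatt
Tfrc element 2: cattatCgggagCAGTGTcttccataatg
Tfrc element 3: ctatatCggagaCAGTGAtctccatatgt
Tfrc element 4: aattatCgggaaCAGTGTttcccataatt

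The stem beside the loop was identical in the ferritin pair, and each of the 4 Tfrc elements had a stem of its own. These matches describe the reference letters and do not show binding.

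By CPM, cycloheximide-treated libraries held less RNA of the 6 iron storage, uptake and sensing genes and more of Mt1 and Mt2 at both times. The scale changed the 3 h direction of 5 genes. Fth1, Slc11a2, Ireb2 and Aco1 lay above the control by mean UMIs per cell. Mt2 lay below it under TMM factors, which scale libraries by a trimmed mean of gene ratios. There its 3 h log2 ratio was -0.032, above the median of all genes on that scale, -0.063. Both comparisons use the same control library. Past 1.5-fold, the only member above the control was Mt1, after 6 h, and the only member below it was Ftl1, at both times. A second table entry near-identical to Ftl1 bears on that last result and is described with it. The backgrounds for these counts were 13.9% of all 7608 genes higher and 2.13% lower after 3 h, and 22.1% higher and 7.79% lower after 6 h. With 8 genes, 1 member more or less decides whether their share lies above or below these backgrounds. Under TMM factors, Ftl1 and Tfrc were past the fold below the control after 3 h, Fth1 joined them after 6 h and no member was above, where 5.23% of all genes were lower after 3 h and 16.9% after 6 h. Between 3 h and 6 h no member was past 1.5-fold, against 1.74% of all genes higher and 2.52% lower.

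**Figure D1:**
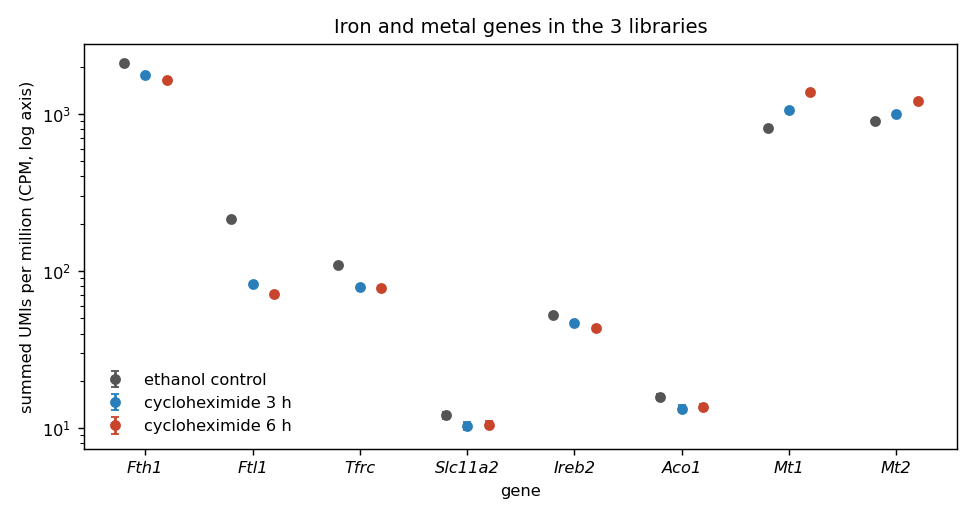
Summed level in CPM (log axis) of the 8 genes in the ethanol control, the 3 h and the 6 h cycloheximide library. Bars are 95% exact Poisson intervals, mostly smaller than the points, and cover counting error only. Mt1 goes from 817 to 1377 CPM and Ftl1 from 214 to 71.5 CPM between control and 6 h.

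The position of 0 depended on scaling. The median log2 CPM ratio of all genes was 0.11 after 3 h and 0.17 after 6 h. TMM factors lowered every log2 ratio by 0.17 after 3 h and by 0.29 after 6 h. Mean UMIs per cell raised every ratio by 0.27 after 3 h and by 0.11 after 6 h, since the treated cells held more UMIs. The median log2 ratio of the 8 members was -0.24 at both times. For each of the 8 genes, all 3 scales are given where the sign against the control differed.

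Ferritin stores iron in a shell built of heavy and light subunits. Fth1 encodes the heavy subunit, which oxidizes iron for storage (ENSMUSG00000024661, chromosome 19, 9980598 to 9985098). It had 2123 CPM (95% exact Poisson interval 2115 to 2132, as for all CPM intervals here) in control cells, 1779 CPM (1771 to 1787) after 3 h and 1658 CPM (1651 to 1665) after 6 h. The control was highest and the 6 h library lowest, with no overlap of counting intervals. The log2 ratio was -0.26 after 3 h and -0.36 after 6 h by CPM, and -0.43 and -0.64 under TMM factors. By mean UMIs per cell it was 0.014 after 3 h and -0.25 after 6 h, so the 3 h direction depended on scaling. In free RNA, read from barcodes with 10 to 100 UMIs, Fth1 also was highest in the control, with 1637, 1245 and 1304 CPM.

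Ftl1 encodes the light subunit, which helps the iron core to form (ENSMUSG00000050708, chromosome 7, 45457944 to 45459884). UMIs assigned to Ftl1 came to 214 CPM (211 to 217) in control cells, 82.8 CPM (81.1 to 84.5) after 3 h and 71.5 CPM (70.1 to 72.9) after 6 h. Both treated libraries lay far below the control, 2.58-fold after 3 h and 2.99-fold after 6 h. The log2 ratios were -1.37 (interval -1.40 to -1.33) and -1.58 (-1.62 to -1.55), and only 0.197% and 0.749% of all genes had lower ratios. They kept their sign under TMM factors (-1.54 and -1.87) and by mean UMIs per cell (-1.10 and -1.47).

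The count tables also list Ftl1-ps1, a ferritin light chain copy on chromosome 13 (ENSMUSG00000062382, 74399694 to 74407346), which was singled out after its values were seen. Over 910 aligned bases its transcript differed from that of Ftl1 at 4 positions, 3 of them within the last 400 bases, the end that this chemistry reads. Of the 474 windows of 90 bases in the last 400 bases of coding Ftl1 transcripts, 48.5% occurred letter for letter in Ftl1-ps1. No such window of the other 7 members occurred in another gene of the table. The copy carries the same 29-base IRE as Ftl1, at chr13:74406428-74406456 (plus strand). How reads shared by the copies were counted is not given in the sources used here, and GRCm38 is not the strain of these cells, so the assignment between the copies is uncertain.

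Ftl1-ps1 took most of the UMIs of the pair. It had 3479 CPM in control cells, 4035 CPM after 3 h and 3630 CPM after 6 h, highest after 3 h. The share of the pair assigned to Ftl1 was 5.79% (95% exact binomial interval 5.72 to 5.86) in control cells, 2.01% (1.97 to 2.05) after 3 h and 1.93% (1.89 to 1.97) after 6 h. This share does not depend on scaling. In free RNA the shares were 5.78%, 2.85% and 2.32%.

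**Figure D2:**
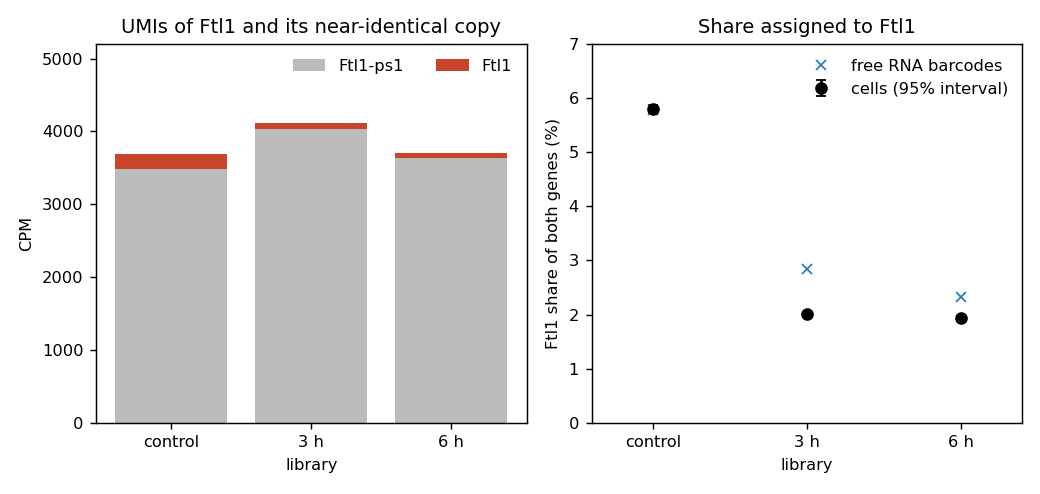
Left, stacked CPM of Ftl1 (red) and Ftl1-ps1 (grey) in each library. Right, the percent of their summed UMIs assigned to Ftl1, in cells (points, with 95% exact binomial intervals smaller than the points) and in free RNA barcodes (crosses, hidden behind the point in the control). The summed bars are 3693, 4118 and 3701 CPM while the Ftl1 share goes from 5.79% to 2.01% and 1.93%.

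Adding both entries, an alternative chosen after seeing the data, gave 3693 CPM (3682 to 3704) in control cells, 4118 CPM (4106 to 4130) after 3 h and 3701 CPM (3691 to 3712) after 6 h. The log2 ratio of the sum was 0.16 after 3 h (interval 0.15 to 0.16) and 0.0034 after 6 h (-0.0025 to 0.0093). The sum is mostly Ftl1-ps1, whose own ratios were 0.21 and 0.06, and it follows that entry. With Ftl1-ps1 as in the control and Ftl1 at 0, the sum would have a log2 ratio of -0.086, so it describes the pair and says nothing of the UMIs assigned to Ftl1. Under TMM factors the sum had -0.017 and -0.28, and by mean UMIs per cell 0.43 and 0.11, so its sign depended on scaling at both times.

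A ratio inside a library is free of scaling. UMIs of Fth1 per UMI of the summed light chain entries numbered 0.575 (0.572 to 0.578) in control cells, 0.432 (0.430 to 0.434) after 3 h and 0.448 (0.446 to 0.450) after 6 h. Both treated libraries held fewer heavy chain UMIs per light chain UMI than the control. UMIs are counted at the 3′ end and are not scaled to transcript length, so only the comparison between libraries is read.

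Tfrc encodes the receptor that carries transferrin-bound iron into the cell (ENSMUSG00000022797, chromosome 16, 32608920 to 32632794). It had 109 CPM (107 to 111) in control cells, 78.7 CPM (77.0 to 80.4) after 3 h and 78.1 CPM (76.6 to 79.5) after 6 h. The treated libraries lay below the control. By CPM they did not differ from each other beyond counting error, with a log2 ratio of 6 h to 3 h of -0.012 (-0.053 to 0.029). That ratio was -0.12 under TMM factors and -0.17 by mean UMIs per cell, so the likeness of the treated libraries depended on scaling. Against the control the ratios were -0.47 and -0.48 by CPM, -0.64 and -0.77 under TMM factors, and -0.20 and -0.37 by mean UMIs per cell, so the sign held on all 3 scales. Tfrc UMIs per 1 Fth1 UMI were 0.0513 (0.0504 to 0.0523) in control cells, 0.0442 (0.0433 to 0.0452) after 3 h and 0.0471 (0.0462 to 0.0480) after 6 h. In free RNA the Tfrc values were closer together, at 109, 101 and 91.8 CPM.

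Slc11a2 encodes the transporter that moves ferrous iron across membranes, including out of endosomes (ENSMUSG00000023030, chromosome 15, 100387898 to 100425072). It had 12.1 CPM (11.5 to 12.8) in control cells, 10.3 CPM (9.67 to 10.9) after 3 h and 10.5 CPM (9.95 to 11.03) after 6 h, from 1097 to 1471 UMIs a library. Its log2 ratio was -0.24 after 3 h, which became 0.035 by mean UMIs per cell and -0.41 under TMM factors, and -0.21 after 6 h. Forms of the transcript with and without an IRE cannot be told apart in these counts.

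Aco1 and Ireb2 encode the iron regulatory proteins. The Aco1 protein is a cytosolic aconitase when it holds an iron-sulfur cluster and binds IREs when it does not, whereas the Ireb2 protein is degraded in iron-rich cells. Ireb2 (ENSMUSG00000032293, chromosome 9, 54863789 to 54912530) had 52.8 CPM (51.5 to 54.2) in control cells, 46.5 CPM (45.3 to 47.9) after 3 h and 43.6 CPM (42.5 to 44.7) after 6 h. Aco1 (ENSMUSG00000028405, chromosome 4, 40143081 to 40198338) had 15.7 CPM (15.0 to 16.5) in control cells, 13.3 CPM (12.6 to 14.0) after 3 h and 13.7 CPM (13.1 to 14.3) after 6 h. Both were highest in the control.

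The log2 ratios of Ireb2 were -0.18 after 3 h and -0.28 after 6 h, and those of Aco1 -0.25 and -0.20. By mean UMIs per cell the 3 h ratios became 0.087 and 0.024, and under TMM factors -0.36 and -0.42. On the first of these scales, after 6 h they were -0.17 and -0.096. UMIs of Ireb2 per UMI of Aco1 were 3.36 (3.18 to 3.54) in control cells, 3.51 (3.31 to 3.73) after 3 h and 3.20 (3.03 to 3.37) after 6 h, with neighbouring intervals overlapping.

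**Figure D3:**
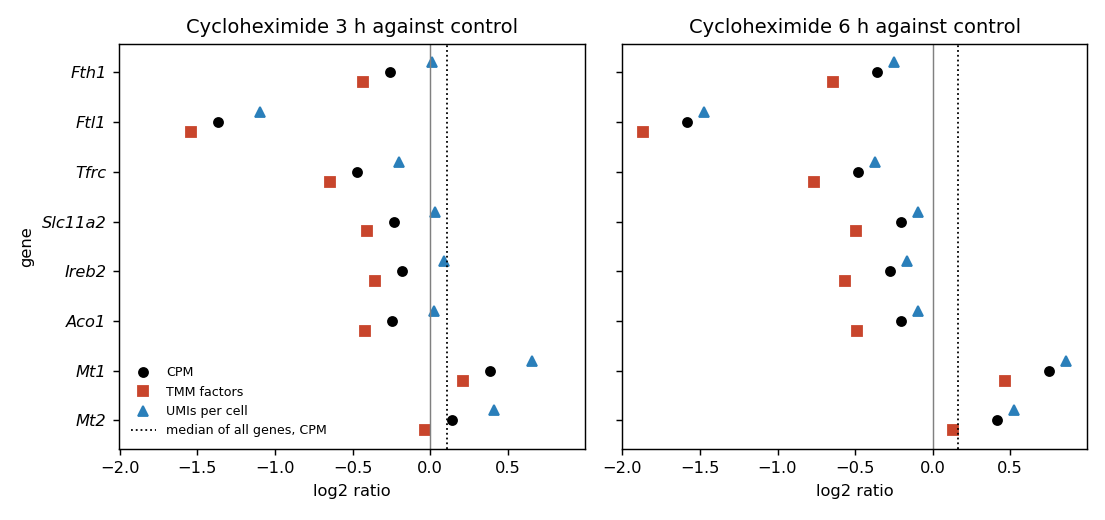
Log2 ratios of the 8 genes after 3 h (left) and 6 h (right) against the control, by CPM (circles), TMM factors (squares) and mean UMIs per cell (triangles), with the median CPM ratio of all genes dotted. Ftl1 lies near -1.37 and -1.58 by CPM, and Mt1 is above 0 on all 3 scales at both times, while Mt2 after 3 h is -0.03 under TMM factors.

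Mt1 and Mt2 are neighbours on mouse chromosome 8 with 5513 bases between them. Their promoters are shown because both genes were above the control. The 250 bases before each RefSeq start (GRCm38.p6, plus strand) lie at chr8:94178839-94179088 for Mt1 and chr8:94172368-94172617 for Mt2. Capitals mark the metal response element cores TGCACNC and TGCGCNC, found on either strand.
Mt1: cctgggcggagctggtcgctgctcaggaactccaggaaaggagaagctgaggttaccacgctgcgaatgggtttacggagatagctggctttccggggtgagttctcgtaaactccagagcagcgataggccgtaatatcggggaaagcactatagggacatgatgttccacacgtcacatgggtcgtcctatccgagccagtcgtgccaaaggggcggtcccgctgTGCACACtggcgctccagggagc
Mt2: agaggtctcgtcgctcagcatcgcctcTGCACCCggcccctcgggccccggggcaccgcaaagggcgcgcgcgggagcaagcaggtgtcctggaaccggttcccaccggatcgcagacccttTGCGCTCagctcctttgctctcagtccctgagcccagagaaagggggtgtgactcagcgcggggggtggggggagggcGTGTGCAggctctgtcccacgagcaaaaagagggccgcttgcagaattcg

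The Mt1 window held 1 core and the Mt2 window 3. Each window covers only the 250 bases before 1 RefSeq start. Motifs outside it, including any downstream of that start, were not searched, so the counts do not compare the whole promoters of both genes. Of all 32851 RefSeq promoter windows of this length, 21.4% held at least 1 core and 1.26% at least 3. The antioxidant response element core TGACNNNGC was found once, in the Mt2 window, against 10.2% of all windows with at least 1. Of the other members, the first of the 2 Tfrc windows held 2 overlapping metal cores, and Fth1, Ftl1, Ireb2 and Aco1 held neither motif.

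Mt1 (ENSMUSG00000031765, chromosome 8, 94179082 to 94180327) had 817 CPM (812 to 822) in control cells, 1067 CPM (1061 to 1073) after 3 h and 1377 CPM (1370 to 1383) after 6 h. It was lowest in the control and highest after 6 h. The log2 ratio was 0.39 after 3 h and 0.75 after 6 h, or 1.31-fold and 1.69-fold. On this scale 75.1% and 84.8% of all genes had lower ratios. The ratios stayed above 0 under TMM factors (0.21 and 0.47) and by mean UMIs per cell (0.65 and 0.86).

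Mt2 (ENSMUSG00000031762, chromosome 8, 94172664 to 94173568) had 901 CPM (896 to 907) in control cells, 995 CPM (989 to 1001) after 3 h and 1203 CPM (1198 to 1209) after 6 h. The order of libraries was the same as for Mt1, with smaller steps. Its log2 ratio was 0.14 after 3 h, which became -0.032 under TMM factors and 0.41 by mean UMIs per cell, and 0.42 after 6 h, which stayed above 0 under TMM factors (0.13). From 3 h to 6 h the ratios of Mt1 and Mt2 were 0.37 and 0.27, and 91.1% and 84.1% of all genes had lower ratios in that comparison.

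The balance within the pair moved towards Mt1. Mt1 made up 47.5% of their summed UMIs (47.3 to 47.8) in control cells, 51.7% (51.5 to 52.0) after 3 h and 53.4% (53.2 to 53.5) after 6 h, with no overlap of intervals. Together the pair took 0.172%, 0.206% and 0.258% of all UMIs of the cells. Free RNA held 888, 1098 and 1671 CPM of Mt1 and 1159, 1238 and 1498 CPM of Mt2, in the same order of libraries as the cells. With 10% of each library's cell UMIs taken as free RNA and subtracted, the log2 ratios to the control were 0.40 and 0.73 for Mt1 and 0.15 and 0.43 for Mt2.

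The spread between cells was read after each cell had been thinned to 15000 UMIs, which every cell reached. Cells of 1 library are not replicates, and these values describe the libraries. Fth1 had UMIs in every cell of every library. Its median was 31 UMIs (quartiles 25 and 37) in control cells, 26 (21 and 32) after 3 h and 24 (19 and 30) after 6 h. At this equal depth the median and quartiles lay lower after treatment. Thinning sets the total of each cell, so these values share the scale dependence of CPM. Before thinning, Fth1 averaged 108 UMIs per cell in the control, 109 after 3 h and 91.1 after 6 h. Its excess squared coefficient of variation, the variance beyond counting noise over the squared mean, was 0.0581, 0.0578 and 0.0575, nearly the same in the 3 libraries.

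Mt1 varied far more between cells than Fth1. Its median was 11 UMIs (quartiles 6 and 17) in control cells, 13 (8 and 20) after 3 h and 17 (10 and 26) after 6 h. The 5th percentile was 2, 3 and 4 UMIs, the 95th percentile 28, 37 and 52 UMIs, and the highest cell had 72, 105 and 191 UMIs. The control's 95th percentile was passed by 4.44% of control cells (95% exact binomial interval 3.61 to 5.38), 10.9% after 3 h (9.44 to 12.4) and 21.2% after 6 h (19.6 to 22.8). The excess squared coefficient of variation of Mt1 was 0.407, 0.466 and 0.640. Among the 424, 439 and 455 genes that averaged 5 or more UMIs in a thinned cell, it ranked 7th, 7th and 4th from the highest, where the median gene had 0.0301, 0.0326 and 0.0304.

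Mt2 was less uneven. Its medians were 13, 14 and 17 UMIs, its 95th percentiles 26, 29 and 36, and its excess values 0.197, 0.182 and 0.229. Across cells of 1 library, Mt1 and Mt2 went together, with a Pearson r of 0.656 over 2187 control cells, 0.676 over 1739 cells after 3 h and 0.749 over 2554 cells after 6 h, on log2 of 1 plus thinned UMIs. The 10% of cells with the most UMIs of the pair held 21.4%, 22.3% and 24.5% of these UMIs. The summed pair had r of 0.061 to 0.078 with log2 depth before thinning, and r of -0.17, -0.11 and -0.093 with the mitochondrial share.

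**Figure D4:**
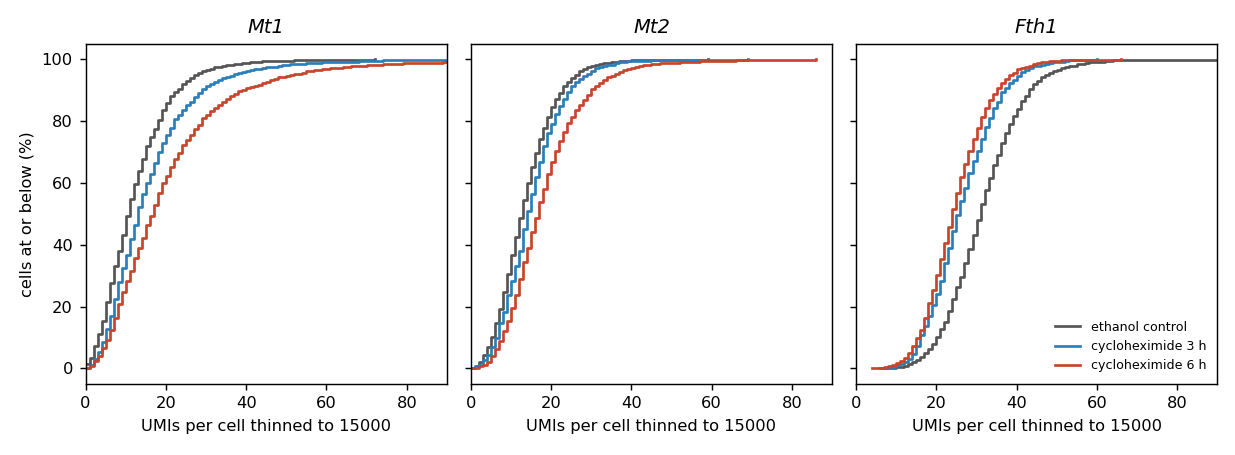
Percent of cells (vertical) at or below a number of UMIs in cells thinned to 15000 UMIs (horizontal, shown to 90 UMIs), for Mt1, Mt2 and Fth1 in the 3 libraries. The 6 h curves of Mt1 and Mt2 lie furthest right with a long upper tail for Mt1, and the control curve of Fth1 lies right of both treated curves.

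The scarcer members were read as shares of cells with a UMI. Tfrc was found in 77.9% of thinned control cells (76.1 to 79.6), 64.2% after 3 h (61.9 to 66.5) and 61.3% after 6 h (59.4 to 63.2). Without thinning the shares were 96.8%, 89.9% and 84.4%. UMIs assigned to Ftl1 were found in 95.3%, 70.4% and 63.4% of thinned cells, and in 99.8%, 95.6% and 93.7% without thinning. Ireb2 was found in 53.6%, 49.7% and 49.5% of thinned cells, Aco1 in 20.1%, 19.4% and 19.0%, and Slc11a2 in 16.5%, 14.4% and 14.8%. No cell type lacking these genes was present to give a background share. The excess squared coefficient of variation of Tfrc was 0.201 in the control, 0.354 after 3 h and 0.420 after 6 h.

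Other pairs of members showed weak relations across cells. The largest r outside the Mt1 and Mt2 pair was 0.228, between Fth1 and Mt1 in the control, and it was 0.145 after 3 h and 0.098 after 6 h. Fth1 and Tfrc had r of -0.078, -0.040 and 0.0025. Fth1 went with Ftl1-ps1 (r of 0.289, 0.340 and 0.361) more than with the UMIs assigned to Ftl1 (0.094, 0.131 and 0.114), which are fewer. Among 6379 other genes with at least 0.2 UMIs per thinned control cell, Mt2, Fth1 and Rasgrp2 (r = 0.196) had the highest r with Mt1. For Fth1 they were Ftl1-ps1, Mt1 and Fau (r = 0.184), and for Tfrc they were Tet1 (r = 0.197), Akap12 (r = 0.190) and Eif4g2 (r = 0.175).

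Likeness over the 3 libraries was measured by the distance between pairs of log2 ratios after 3 h and 6 h, among 5569 genes of at least 20 CPM. Nearest to Mt1 were Mrps7, Atpaf2, Ppdpf, Rnasek and Zc3hc1, at distances of 0.0026 to 0.0203. Nearest to Fth1 were Rpl34, Stip1, Sh3bgrl3, Cdv3 and 1500011B03Rik, at 0.0037 to 0.0184. Nearest to Tfrc were Dnajc2, Dennd5b, Gm49756, Fbxo11 and Tjp1, at 0.0184 to 0.0336. Neither Mt2 for Mt1, nor another iron gene for Fth1 or Tfrc, was among the 5 nearest.

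The other genes of metal handling were taken from 6 lists of 118 symbols, of which 115 were in the tables and 79 reached 10 CPM. By CPM, 6 of the 79 were past 1.5-fold above the control after 3 h (7.59%) and 2 below it (2.53%). At 6 h, 13 were above (16.5%) and 6 below (7.59%). The shares above were lower than the 13.9% and 22.1% of all genes, and those below were close to the 2.13% and 7.79% of all genes. Under TMM factors the counts were 3 above and 4 below after 3 h, where 8.60% of all genes were above and 5.23% below. After 6 h they were 5 above and 9 below, where 11.6% of all genes were above and 16.9% below. The median log2 ratio of the 79 was 0.078 after 3 h and 0.14 after 6 h, beside 0.11 and 0.17 for all genes.

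**Figure D5:**
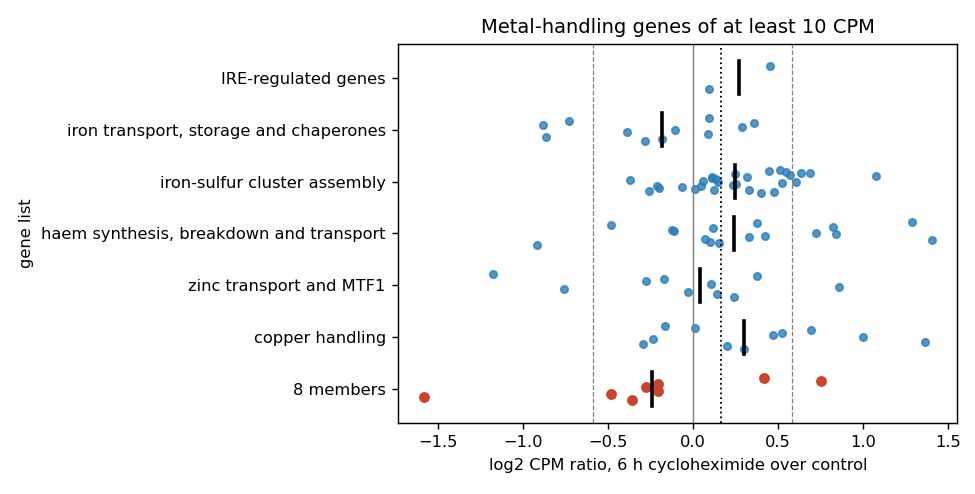
Log2 CPM ratios after 6 h over the control for metal-handling genes of at least 10 CPM, by list (blue), and for the 8 genes of this report (red). Black bars are medians, dashed lines mark 1.5-fold and the dotted line the median of all genes, 0.17. The 8 genes have a median of -0.24, and copper handling the highest median of a list with more than 2 genes, 0.30.

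Of the haem genes, 5 of 16 were past the fold above the control after 6 h (31.2%) and 1 below, beside 22.1% and 7.79% of all genes. Under TMM factors only Uros and Slc25a38 remained above and 2 genes were below, beside 11.6% and 16.9% of all genes. Alas1, the first enzyme of haem synthesis in most tissues, had 21.3 CPM in control cells, 13.1 CPM after 3 h and 11.3 CPM after 6 h, a log2 ratio of -0.92 after 6 h. Hmox1, which breaks haem down and frees its iron, had 64.3, 96.5 and 115 CPM, and its log2 ratio was 0.84 after 6 h and 0.56 under TMM factors. Hmox2, the constitutive form of that enzyme, had 0.72. Uros, a later enzyme of haem synthesis, had the highest ratio of the list at 1.41, from 5.53 CPM in the control and 14.7 CPM after 6 h. Slc25a38, a mitochondrial glycine carrier for haem synthesis, had 1.29, and the haem-binding protein gene Hebp1 had 0.82.

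Among iron transport, storage and chaperone genes, 3 of 11 were past 1.5-fold below the control after 6 h (27.3%) and 0 above. Of all genes, 7.79% were below and 22.1% above. Under TMM factors 4 of the 11 were below, where Pcbp2 joined them, beside 16.9% of all genes. The 3 below by CPM were Herc2 (-0.88), a ubiquitin ligase, Slc39a14 (-0.86), a zinc and iron importer, and Slc25a28 (-0.73), a mitochondrial iron importer. The iron chaperone genes Pcbp1 and Pcbp2 had log2 ratios of 0.088 and -0.39 after 6 h, and the former became -0.20 under TMM factors. Ncoa4, the receptor for ferritin breakdown, had -0.11, which was 0.0015 by mean UMIs per cell. Fbxl5, the iron sensor that marks the Ireb2 protein for degradation, had 0.29, which was 0.0025 under TMM factors. These last 4 genes lay outside the naming rule and were chosen after their values were seen.

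Copper handling had 3 of 11 genes past the fold above the control at both times (27.3%) and 0 below. Of all genes, 13.9% were above after 3 h and 22.1% after 6 h, with 2.13% and 7.79% below. The 3 copper genes were Ccs, the chaperone of superoxide dismutase (57.0, 86.4 and 147 CPM, log2 ratio 1.36 after 6 h), and Cox11 (1.00) and Sco2 (0.70), which supply copper to cytochrome oxidase. Under TMM factors the 6 h ratios were 1.08, 0.72 and 0.41, so Sco2 was no longer past the fold, and after 3 h Sco2 alone remained past it. On that scale 8.60% of all genes were above after 3 h and 11.6% after 6 h, with 16.9% below after 6 h. In iron-sulfur cluster assembly, 4 of 29 genes were past the fold above the control after 6 h (13.8%, beside 22.1% of all genes) and 0 below, and under TMM factors 1 was above, Nubp2, and 1 below. Nubp2 (1.08), Ciao2b (0.69) and Ciao3 (0.64) belong to the cytosolic assembly machinery, and Abcb8 (0.61) is a mitochondrial transporter. At 3 h, 0 of these 29 genes were past the fold by CPM, beside 13.9% of all genes above and 2.13% below.

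Of 10 zinc genes that reached 10 CPM, 1 was past the fold above the control after 6 h and 2 below. Of all genes, 22.1% were above and 7.79% below. Under TMM factors 0 zinc genes were above and 2 below, beside 11.6% and 16.9% of all genes. Slc39a10, a zinc importer, had 38.3 CPM in control cells, 27.9 CPM after 3 h and 16.9 CPM after 6 h, a log2 ratio of -1.18. Slc30a5 (-0.76) was lower and Slc30a6 (0.86) higher after 6 h, and their proteins work as a pair that loads zinc into the secretory pathway. Mtf1, which encodes the zinc sensor, had 16.2, 21.2 and 19.2 CPM, with log2 ratios of 0.39 after 3 h and 0.24 after 6 h, the latter -0.043 under TMM factors. Slc30a1, a zinc exporter and known MTF1 target, had 14.1, 19.4 and 13.8 CPM, above the control after 3 h (0.46) and within counting error of it after 6 h (-0.029, interval -0.13 to 0.068), or -0.32 under TMM factors and 0.079 by mean UMIs per cell. The values of Mtf1 and Slc30a1 were chosen after they were seen, as was Cdc42bpa of the IRE list, a kinase gene with a log2 ratio of 0.45 after 6 h.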

How the data were processed

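The authors deposited a matrix of unnormalized UMI counts for each library. They were made with Cell Ranger 4.0.0 on mm10, per the submitters' processing notes and the file headers. The annotation release is not given in the sources used here. Each matrix listed 6794880 barcodes, so cells were called here by depth and mitochondrial share. Doublets were not removed. Some genes of the wider lists are not reported here by name. The members, lists and rules were chosen with earlier results of these data known. UMIs of the cells were summed per library and expressed as CPM, and log2 ratios used a prior of 0.5 counts. Genes of at least 10 CPM on average were compared. With 1 library per group no test was made. The 95% intervals are exact Poisson, conditional binomial and binomial (Clopper-Pearson) intervals and cover counting error only.

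The text names all 8 members and, in each list, up to 6 genes past 1.5-fold with the largest ratios at 6 h. It also names the 5 genes nearest in pattern and the 3 highest in cell correlation. The ratio and thinning code was tested on simulated data. Alternatives were TMM factors (edgeR 4.0.16, R 4.3.3), median-of-ratios factors, mean UMIs per cell, totals without mitochondrial genes, other cell limits, removal of 10% free RNA, a prior of 5, a 2-fold limit, other floors and other thinning. Coordinates are those of GENCODE M21 on GRCm38, matched by identifier for 32235 of 32285 genes. Promoters from RefSeq (GRCm38.p6) matched 7 of 8 members, all but Slc11a2. Python 3.11.15, numpy 2.4.6 and scipy 1.17.1 were used.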

Additional observations from a re-analysis of the deposited data

Results flagged for a closer look

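For 3 metal-handling genes named here the log2 ratio to the control was negative after 3 h and positive after 6 h, and the counting interval left out 0 each time. With a single library per time, this difference was not tested. Mt3, the third metallothionein gene, had 12.7 CPM in control cells, 9.63 CPM after 3 h and 14.0 CPM after 6 h, with log2 ratios of -0.40 and 0.14. By mean UMIs per cell its ratios were -0.13 and 0.25, and under TMM factors both were below 0 (-0.58 and -0.15). Its 3 h value lay on the other side of the control from those of Mt1 and Mt2 by CPM. The haem synthesis gene Urod (-0.10 and 0.071) and the cluster assembly gene Nubp1 (-0.056 and 0.12) had smaller ratios of opposite sign. Under TMM factors both were below the control at both times, and their mean UMIs per cell were above it at both times, so their opposite signs appeared by CPM and not on those scales.

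Barcodes with 10 to 100 UMIs, which hold free RNA and entered no comparison between cells, had more Mt1 and Mt2 in the treated libraries than in the control. Mt1 had 1098 CPM there after 3 h and 1671 CPM after 6 h, against 888 CPM in the control. Mt2 had 1238 CPM after 3 h and 1498 CPM after 6 h, against 1159 CPM.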

How the results depend on the processing

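No paired analysis was possible because each group has 1 library. With the sum of Ftl1 and Ftl1-ps1 in the place of Ftl1, ratios (log2) of 0.16 after 3 h and 0.0034 after 6 h were found and the members past the fold below the control numbered 0 at both times, which follows from its construction, since Ftl1 is 5.79% or less of the sum. Under TMM factors and median-of-ratios factors alike, 2 members at 3 h and 3 at 6 h were past the fold below the control. On both scales 0 members were above at 6 h. The wider genes numbered 3 above and 4 below at 3 h, 5 above at 6 h, and 1 higher at 6 h than at 3 h. Under median-of-ratios factors 10 were below at 6 h. By those factors 8.46% of all genes were above and 5.45% below at 3 h, and 11.3% and 17.7% at 6 h. From 3 h to 6 h, 0.802% of all genes were higher under TMM factors and 0.762% under median-of-ratios factors. By mean UMIs per cell, 1 member was past the fold above the control at 3 h. On that scale 18 wider genes were above and 0 below at 3 h, beside 30.1% and 0.78% of all genes. At 6 h 19 were above, beside 27.8%, and 1 was higher at 6 h than at 3 h, beside 0.591%. Without mitochondrial limits 1 wider gene was below at 3 h, beside 1.80% of all genes. At a 2-fold limit the member above the control at 6 h was lost (0). The wider genes numbered 0 above and 0 below at 3 h, 5 and 1 at 6 h, and 0 and 0 between the times. Of all genes, 4.32% were above and 0.513% below at 3 h at this limit, and 8.65% and 2.41% at 6 h. Between the times the shares were 0.145% and 0.657%. With no floor, 113 wider genes numbered 18 and 7, 29 and 10, and 8 and 6 in the same order. Of all genes, 28.5% were above and 10.4% below at 3 h, and 40.2% and 12.2% at 6 h. Between the times the shares were 22.7% and 9.34%. With a floor of 50 CPM, 29 wider genes numbered 2 and 0, 5 and 0, and 1 and 0. There 8.78% of all genes were above and 1.33% below at 3 h, and 15.2% and 6.54% at 6 h. Between the times the shares with that floor were 0.715% and 2.01%. Over the other cell limits, totals without mitochondrial genes, free RNA removal and a prior of 5, each member ratio moved by at most 0.075 and those against the control kept their sign. The r of Mt1 and Mt2 was 0.747 to 0.824 over the libraries when thinned to 30000 UMIs, which left out 311, 193 and 313 cells, and 0.860 to 0.911 without thinning. Slc11a2 and Aco1 have under 2000 UMIs in each library, which limits their intervals most.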
